A study of Mus musculus with 9 samples.

Results

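The p53 pathway was followed in cultured mouse spermatogonial stem cells (SSCs), the germline cells that renew themselves and give rise to sperm, through 36 genes of the 53801 in the count table. The genes were taken by symbol and comprise Trp53, which encodes p53, its direct regulators Mdm2 and Mdm4, and established p53 target genes. By role, 3 were p53 and its regulators, 6 act in cell cycle arrest, 14 in apoptosis, 5 in DNA repair and nucleotide supply, 4 in metabolism and redox control, and 4 were other targets. All 36 were found in the table and passed the filter on low counts.

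The p53 protein is a transcription factor that is kept scarce in unstressed cells by MDM2, a ubiquitin ligase, and by MDM4, a relative of MDM2 that binds and restrains it. After DNA damage or other stress p53 is stabilised and raises the transcription of genes that stop the cell cycle, trigger apoptosis, repair DNA or adjust metabolism, among them Mdm2 itself, so that the pathway limits its own output. The pathway is known for removing damaged cells from the germline. PRMT5, the enzyme manipulated here, adds symmetric methyl groups to arginines of histones, splicing factors and other proteins.

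RNA-seq was analysed from 9 libraries in groups labelled 4OHT, MU and OE, with 3 libraries in each. By the study's account, SSCs came from Prmt5 flox/flox; Rosa26-CreERT2 mice and received 4-hydroxytamoxifen (4OHT) at 1 µM, a ligand that activates CreERT2 and so deletes Prmt5. The MU and OE groups were read as such cells given, in addition, catalytically dead PRMT5 (E444Q) or wild-type PRMT5 (WT), since the labels hold the abbreviations alone. The comparison of MU with OE sets catalytically dead against wild-type PRMT5, and that of either with 4OHT addresses what the added construct changed. All 9 libraries shared the 4OHT treatment, and cells given ethanol were not analysed here. CreERT2 is driven from the Rosa26 locus, which is active in most cell types, and no group carried an empty construct, so the effect of PRMT5 and that of introducing a construct cannot be told apart in MU or OE against 4OHT. The study's chemical screen used mitomycin C-treated CF1 mouse embryonic fibroblasts as feeder cells, and its growth curves used a feeder layer of unnamed type. Whether the sequenced cultures had feeder cells, and whether these were removed before RNA extraction, is not given in the sources used here. No label says that the libraries of a group came from separate cultures, so the p-values measure the spread between these libraries, which may be technical.

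Library totals were 78751996 to 95370711 counts in 4OHT, 192033300 to 365719548 counts in MU and 79941857 to 154557863 counts in OE. Levels are given as counts-per-million values of the scaled library (CPM), and changes as log2 fold changes from edgeR with p-values adjusted over the 22452 genes tested, called where the adjusted p was under 0.05. Prmt5 was at 31.9, 30.8 and 28.2 CPM in the 4OHT libraries, 145, 147 and 146 CPM in the MU libraries and 1072, 1071 and 1085 CPM in the OE libraries. It was thus lowest in 4OHT, higher in MU and highest in OE, with no overlap, but the count covers the whole gene and does not single out the deleted exons. MU was 7.36-fold lower than OE in Prmt5 mRNA, so the amount of this mRNA was not matched between the constructs. Catalytic activity and the amount of Prmt5 mRNA therefore cannot be told apart in MU against OE. At the protein level, the study reports from western blots that either construct restored PRMT5. These counts do not measure protein. The first OE library stood apart from the other 8 on the second principal component of all genes (-106 against -7.81 to 29.5), and counts of members and of other pathway genes without it are given where they differ. Markers of germ cells and of other cell types are given after the members.

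Of the 36 members, 28 had a promoter window in the RefSeq table (GRCm38.p6, 250 bases before to 50 after the start of the gene), and Pmaip1, Trp53inp1, Tnfrsf10b, Perp, Rrm2b, Ddb2, Xpc and Zmat3 were not analysed here for sequence. These windows were searched on both strands for the p53 response element, which consists of a pair of adjoining 10-base half-sites, each with 3 purines, the core CNNG with A or T at its inner positions, and 3 pyrimidines. The full 20-base element with at most 1 mismatch was found for 3 of the 28 members (10.7%), namely Cdkn1a, Ccng1 and Rps27l. Of all 27025 genes with a window, 29 had it (0.107%). No member had it without a mismatch, and 4 had it with at most 2 mismatches (14.3%), against 0.94% of all genes. At least 1 exact half-site was present for 12 of the 28 (42.9%) against 9.55% of all genes with a window. The members were chosen as established p53 targets, so these shares are not independent of that choice. A match describes the letters in the window and is not evidence of binding, and elements farther from the start were not searched. The 3 windows with a full element of at most 1 mismatch are shown, as no other member had one. Each is printed 5′ to 3′ on the strand of its gene, without transcribed exon bases, and the capitals mark the element. Counted from the GENCODE start, the element of Cdkn1a begins 48 bases upstream of the gene in chr17:29090729-29090975 (plus strand), that of Ccng1 begins 170 bases upstream of the gene in chr11:40755312-40755536 (minus strand), and that of Rps27l lies in chr9:66946181-66946354 (plus strand). The windows follow the RefSeq start, and for Rps27l the GENCODE start lies farther upstream, so that the element begins 117 bases before the RefSeq start and 210 bases after the GENCODE start, in an intron of the GENCODE gene.
Cdkn1a: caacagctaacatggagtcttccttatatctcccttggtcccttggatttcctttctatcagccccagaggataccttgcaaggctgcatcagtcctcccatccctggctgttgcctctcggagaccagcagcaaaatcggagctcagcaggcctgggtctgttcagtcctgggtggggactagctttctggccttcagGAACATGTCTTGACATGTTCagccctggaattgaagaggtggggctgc
Ccng1: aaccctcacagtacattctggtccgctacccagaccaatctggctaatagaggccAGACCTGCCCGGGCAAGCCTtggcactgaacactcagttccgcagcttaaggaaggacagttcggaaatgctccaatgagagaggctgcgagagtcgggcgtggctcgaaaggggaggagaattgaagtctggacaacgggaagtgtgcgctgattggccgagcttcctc
Rps27l: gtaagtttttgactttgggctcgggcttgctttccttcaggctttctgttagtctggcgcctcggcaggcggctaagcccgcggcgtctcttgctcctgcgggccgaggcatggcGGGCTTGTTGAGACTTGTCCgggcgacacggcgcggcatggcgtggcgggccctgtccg

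Most members were lower in both construct groups than with 4OHT alone. In MU against 4OHT, 27 members were lower, 6 were higher and 3 were not called, while 56% of all genes tested were called, 26.5% lower and 29.5% higher. In OE against 4OHT, 27 were lower, 6 higher and 3 not called, while 57.8% of all genes were called, 27.9% lower and 29.9% higher. The median log2 fold change of the members was -0.63 in MU and -0.75 in OE, and that of all genes was 0.043 and 0.018. In each comparison 14 members were both called and at least 2-fold lower, whereas at least 2-fold higher calls numbered 2 in MU (Ddb2 and Gdf15) and 1 in OE (Gdf15). Of all genes, 19.5% in MU and 21.9% in OE were called with a change of at least 2-fold in either direction. Both comparisons use the same 4OHT libraries and are therefore not independent. The libraries of the groups did not overlap for 34 members in each comparison, against 63.9% of all genes in MU and 61.6% in OE. In the same comparisons the summed level of fibroblast marker genes was 2.003-fold lower in MU and 2.56-fold lower in OE, and its part in the members' differences was not tested. Fewer cells of a type and less RNA per cell cannot be told apart in these bulk libraries.

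**Figure D1:**
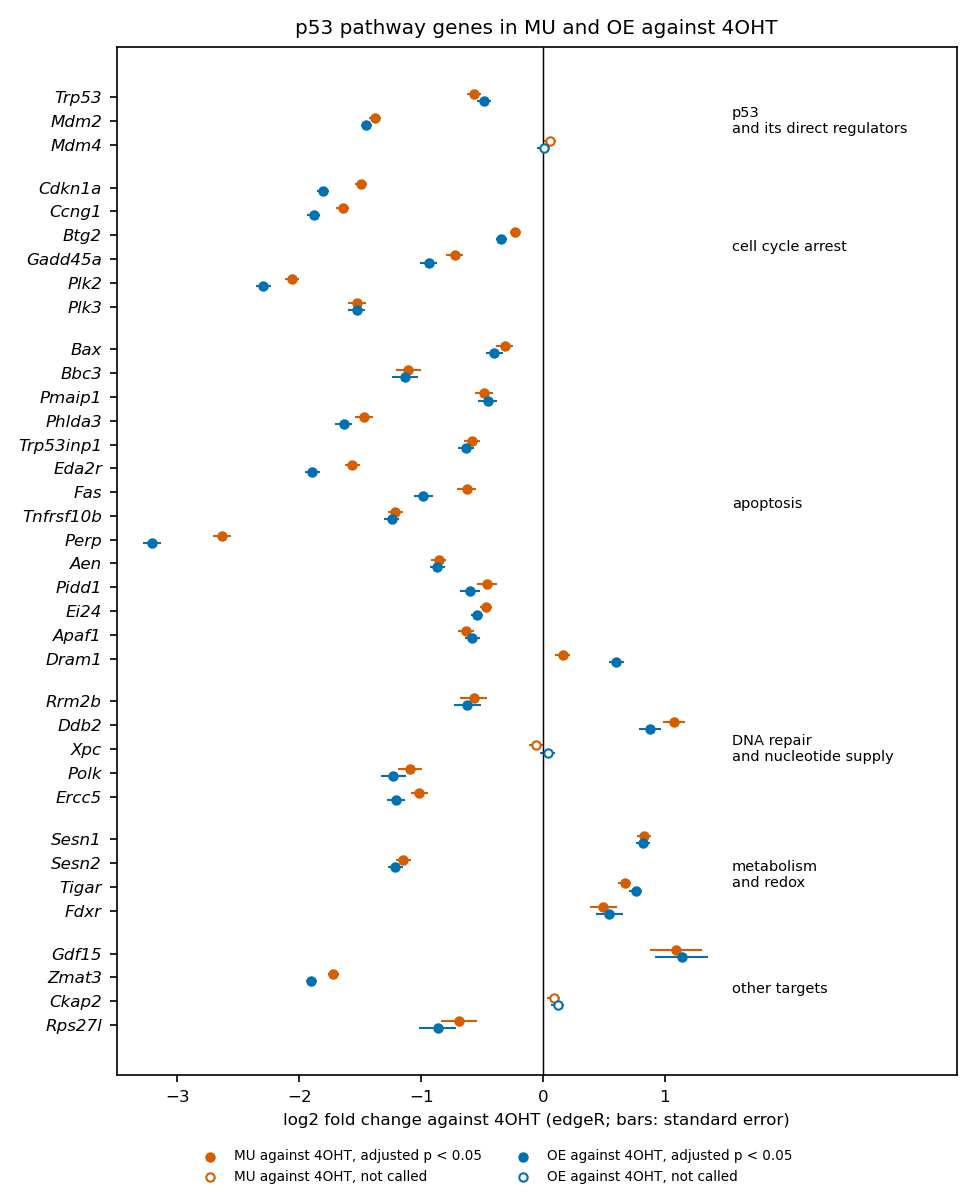
Log2 fold change of each of the 36 p53 pathway genes against 4OHT, grouped by role, for MU (orange) and OE (blue), with the standard error as a bar and filled points for an adjusted p under 0.05. Points left of 0 are lower than in 4OHT, as for 27 members in each comparison, and all 6 genes of cell cycle arrest lie there.

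Among p53 and its direct regulators, Trp53 and Mdm2 were lower in MU and OE and Mdm4 was not called. Trp53 (ENSMUSG00000059552, GRCm38 chromosome 11, 69580359 to 69591873, plus strand) was at 116, 116 and 129 CPM in the 4OHT libraries, 78.6, 84.7 and 79.3 CPM in the MU libraries and 82.3, 86.3 and 88.8 CPM in the OE libraries. All 4OHT libraries were above all libraries of the constructs, and MU and OE overlapped. The log2 fold change was -0.57 in MU (standard error 0.056, adjusted p = 1.04e-06 from edgeR) and -0.48 in OE (standard error 0.057, adjusted p = 5.12e-06), which is 1.48-fold and 1.40-fold lower. Mdm2 (ENSMUSG00000020184, GRCm38 chromosome 10, 117688875 to 117710758, minus strand), a p53 target and the main inhibitor of p53, was at 724, 664 and 701 CPM in the 4OHT libraries, 273, 261 and 271 CPM in the MU libraries and 258, 246 and 261 CPM in the OE libraries. Every 4OHT library was thus over 2 times as high as every library of the constructs, while MU and OE overlapped. Its log2 fold change was -1.38 in MU (standard error 0.048, adjusted p = 4.01e-11 from edgeR) and -1.45 in OE (standard error 0.048, adjusted p = 1.71e-11). Mdm4 (ENSMUSG00000054387, GRCm38 chromosome 1, 132959484 to 133030561, minus strand) was at 274, 245 and 244 CPM in the 4OHT libraries, 265, 264 and 264 CPM in the MU libraries and 262, 245 and 260.0 CPM in the OE libraries, and the groups overlapped except that the MU libraries lay just above those of OE. Its log2 fold change was 0.056 in MU (95% interval -0.048 to 0.16, adjusted p = 0.396 from edgeR) and 0.0088 in OE (95% interval -0.10 to 0.11, adjusted p = 0.900). These gene-level counts do not separate the splice forms of Mdm4. With library totals in place of scaling factors, Mdm4 was called higher in MU (0.17, adjusted p = 0.0177), a setting that moved the median of all genes from 0.043 to 0.16, and the sign of its value near 0 in OE changed with the setting.

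All 6 genes of cell cycle arrest were lower in each construct group, with a median log2 fold change of -1.51 in MU and -1.67 in OE. Cdkn1a (ENSMUSG00000023067, GRCm38 chromosome 17, 29090976 to 29100727, plus strand) encodes p21, an inhibitor of cyclin-dependent kinases and the best known arrest target of p53. It was at 431, 453 and 417 CPM in the 4OHT libraries, 151, 155 and 156 CPM in the MU libraries and 127, 126 and 119 CPM in the OE libraries. The groups formed 3 separate levels, which ran from 4OHT down to MU and then OE. It was 2.82-fold lower in MU (log2 fold change -1.49, standard error 0.048, adjusted p = 1.92e-11 from edgeR) and 3.50-fold lower in OE (-1.81, standard error 0.049, adjusted p = 2.45e-12). Ccng1 (ENSMUSG00000020326, GRCm38 chromosome 11, 40748552 to 40755311, minus strand), which encodes cyclin G1, was at 1084, 981 and 944 CPM in the 4OHT libraries, 332, 311 and 320.3 CPM in the MU libraries and 276, 266 and 275 CPM in the OE libraries, again 3 levels without overlap. It was the member with the highest level per length in 4OHT, at 286 CPM per kilobase of exon, and it remained the highest at 91.4 in MU and 77.5 in OE. Its log2 fold change was -1.64 in MU (adjusted p = 2.64e-11 from edgeR) and -1.88 in OE (adjusted p = 5.39e-12).

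The polo-like kinases Plk2 and Plk3, which are stress-responsive relatives of the mitotic kinase Plk1, were also lower. Plk2 was at 249.7, 245 and 286 CPM in the 4OHT libraries, 63.6, 61.5 and 62.3 CPM in the MU libraries and 54.2, 51.8 and 53.2 CPM in the OE libraries, and the 4OHT libraries lay far above the rest. It had the largest difference of the arrest genes, 4.17-fold lower in MU (log2 fold change -2.06, standard error 0.06, adjusted p = 7.20e-12 from edgeR) and 4.91-fold lower in OE (-2.30, standard error 0.061, adjusted p = 2.11e-12). Plk3 averaged 35.5 ± 1.96 CPM (SD, n = 3) in 4OHT, 12.3 ± 0.562 in MU and 12.3 ± 0.304 in OE, with log2 fold changes of -1.53 and -1.53. Gadd45a, a small protein induced by growth arrest and DNA damage, averaged 30.6 ± 2.14 CPM (SD, n = 3) in 4OHT, 18.6 ± 0.875 in MU and 15.998 ± 0.289 in OE (log2 fold changes -0.72 and -0.94). The smallest difference was that of Btg2, an antiproliferative gene, at 241, 250.4 and 247 CPM in the 4OHT libraries, 211, 211 and 210.0 CPM in the MU libraries and 191, 196 and 197 CPM in the OE libraries. Its 3 groups did not overlap although the log2 fold change was only -0.23 in MU (adjusted p = 3.58e-04 from edgeR) and -0.34 in OE (adjusted p = 7.99e-06). Of these genes, Cdkn1a, Plk3 and Gadd45a share exon bases with a transcript on the opposite strand, and the strand setting of the counting is not given in the sources used here.

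**Figure D2:**
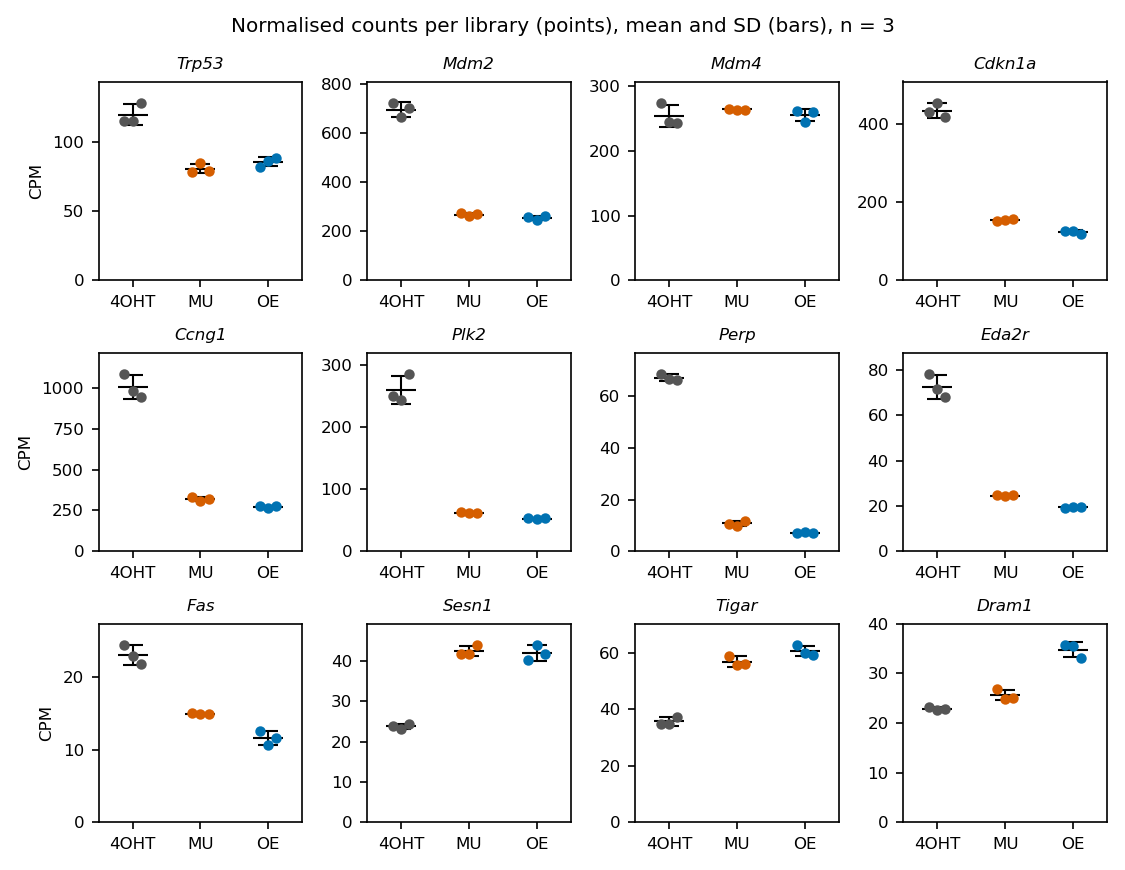
CPM per library (points) with mean and SD (bars, n = 3) for 12 p53 pathway genes in 4OHT, MU and OE, each on its own axis from 0. Trp53, Mdm2, Cdkn1a, Ccng1, Plk2, Perp, Eda2r and Fas are lower in MU and OE than in 4OHT, Sesn1, Tigar and Dram1 are higher, and Mdm4 overlaps between 4OHT and the other groups.

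Of the 14 genes of apoptosis, 13 were lower and 1, Dram1, was higher in each construct group, with a median log2 fold change of -0.63 in MU and -0.75 in OE. Perp, a membrane protein of desmosomes that p53 induces during apoptosis, differed most of all 36 members. It was at 68.7, 66.7 and 66.2 CPM in the 4OHT libraries, 10.7, 9.94 and 11.8 CPM in the MU libraries and 7.09, 7.36 and 7.30 CPM in the OE libraries (ENSMUSG00000019851, GRCm38 chromosome 10, 18845020 to 18857073, plus strand), with 3 levels without overlap and the 4OHT libraries well above the others. It was 6.21-fold lower in MU (log2 fold change -2.63, standard error 0.071, adjusted p = 3.87e-12 from edgeR) and 9.26-fold lower in OE (-3.21, standard error 0.075, adjusted p = 6.76e-13). The receptor genes form a group of 3, in which all were lower. Eda2r, the ectodysplasin A2 receptor, was at 78.3, 71.4 and 68.0 CPM in the 4OHT libraries, 24.6, 24.3 and 24.7 CPM in the MU libraries and 19.2, 19.7 and 19.7 CPM in the OE libraries. Its groups were separate and ran from 4OHT down to MU and OE, with log2 fold changes of -1.56 (adjusted p = 9.51e-11 from edgeR) and -1.89 (adjusted p = 1.43e-11). Fas, the receptor of Fas ligand, was at 24.4, 22.9 and 21.7 CPM in the 4OHT libraries, 14.99, 14.8 and 14.9 CPM in the MU libraries and 12.6, 10.7 and 11.6 CPM in the OE libraries. The order of its groups was the same, with a smaller difference in MU (-0.62, adjusted p = 1.06e-05 from edgeR) and in OE (-0.98, adjusted p = 1.28e-07). Tnfrsf10b, the mouse TRAIL receptor, averaged 94.1 ± 5.796 CPM (SD, n = 3) in 4OHT, 40.6 ± 1.20 in MU and 39.8 ± 2.29 in OE, and MU and OE overlapped (log2 fold changes -1.21 and -1.24).

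The BCL2 family was represented by Bax, a pore-forming protein of the mitochondrial outer membrane, and by Bbc3 (PUMA) and Pmaip1 (NOXA), BH3-only proteins that promote its action. Bbc3 was at 15.7, 21.1 and 17.0 CPM in the 4OHT libraries, 8.19, 8.51 and 8.33 CPM in the MU libraries and 8.11, 8.06 and 8.38 CPM in the OE libraries. The 4OHT libraries were the most spread and still lay above all others, with log2 fold changes of -1.10 in MU (standard error 0.10, adjusted p = 6.17e-07 from edgeR) and -1.13 in OE (standard error 0.11, adjusted p = 4.98e-07). Bax averaged 121 ± 13.9 CPM (SD, n = 3) in 4OHT, 97.7 ± 2.12 in MU and 92.0 ± 4.18 in OE, with log2 fold changes of -0.31 (adjusted p = 0.00177 from edgeR) and -0.40 (adjusted p = 2.55e-04). Pmaip1 averaged 60.4 ± 6.05 CPM (SD, n = 3) in 4OHT, 43.2 ± 0.707 in MU and 44.1 ± 3.36 in OE, and its log2 fold changes were -0.48 and -0.45. These BCL2 family genes were thus called lower by amounts that ranged from 1.24-fold for Bax to 2.15-fold for Bbc3 in MU. Apaf1, the scaffold of the apoptosome, averaged 70.2 CPM in 4OHT, 45.3 in MU and 47.0 in OE (log2 fold changes -0.63 and -0.58).

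The remaining apoptosis genes act through other routes. Phlda3, which competes with AKT for membrane lipids, averaged 126 ± 14.1 CPM (SD, n = 3) in 4OHT, 45.5 ± 1.49 in MU and 40.6 ± 1.23 in OE, the third largest difference of the apoptosis genes in MU (log2 fold change -1.47) and in OE (-1.64). Aen, an exonuclease that degrades DNA in dying cells, averaged 141 CPM in 4OHT, 78.0 in MU and 77.4 in OE (-0.86 and -0.87). Trp53inp1, a stress protein of autophagy and cell death, averaged 378 CPM in 4OHT, 252 in MU and 244 in OE (-0.58 and -0.63). Lower levels were also found for Ei24, an endoplasmic reticulum protein, at -0.47 and -0.54, and for Pidd1, which activates caspase-2 in the PIDDosome, at -0.46 and -0.60. Dram1, a lysosomal membrane protein of autophagy, went the other way. It was at 23.2, 22.6 and 22.8 CPM in the 4OHT libraries, 26.9, 24.9 and 25.1 CPM in the MU libraries and 35.8, 35.5 and 33.1 CPM in the OE libraries. The order from 4OHT up to MU and OE was the reverse of most members, without overlap. The log2 fold change was 0.60 in OE (standard error 0.061, adjusted p = 1.18e-06 from edgeR) but 0.16 in MU (standard error 0.061, adjusted p = 0.0349). The call in MU was lost in 10 of 17 alternative fits that tested for any change, with adjusted p from 0.0529 to 0.14, among them the fits without any single 4OHT or MU library.

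In DNA repair and nucleotide supply, 3 of 5 members were lower, 1 was higher and 1 was not called in each comparison. Polk, a translesion DNA polymerase, averaged 44.5 ± 6.05 CPM (SD, n = 3) in 4OHT, 20.9 ± 0.872 in MU and 19.01 ± 2.07 in OE. Ercc5, the XPG endonuclease of nucleotide excision repair, averaged 47.9 ± 4.47 CPM (SD, n = 3) in 4OHT, 23.7 ± 0.962 in MU and 20.8 ± 0.491 in OE. Both were over 2-fold lower, with log2 fold changes of -1.09 and -1.23 for Polk and -1.01 and -1.20 for Ercc5. Rrm2b, the ribonucleotide reductase subunit that p53 induces, averaged 15.2 ± 1.47 CPM (SD, n = 3) in 4OHT, 10.2 ± 0.816 in MU and 9.85 ± 1.25 in OE, and was lower at -0.57 (adjusted p = 5.11e-04 from edgeR) and -0.62 (adjusted p = 2.63e-04). Ddb2 and Xpc both recognise damaged bases at the start of nucleotide excision repair. Ddb2 was at 9.99, 8.51 and 10.8 CPM in the 4OHT libraries, 19.8, 20.5 and 21.5 CPM in the MU libraries and 18.4, 17.0 and 18.4 CPM in the OE libraries. All libraries of the constructs were above those of 4OHT, with a log2 fold change of 1.08 in MU (standard error 0.09, adjusted p = 1.77e-07 from edgeR) and 0.88 in OE (standard error 0.091, adjusted p = 1.37e-06). Ddb2 shares 652 exon bases, 23.8% of its exon length, with Acp2 on the opposite strand, and reads of the pair cannot be told apart if strand was not used. Xpc was at 93.7, 98.3 and 109 CPM in the 4OHT libraries, 96.2, 98.4 and 95.6 CPM in the MU libraries and 98.5, 103 and 108 CPM in the OE libraries. MU and OE each overlapped with 4OHT, and the log2 fold change was -0.054 in MU (95% interval -0.17 to 0.061, adjusted p = 0.466 from edgeR) and 0.039 in OE (95% interval -0.077 to 0.15, adjusted p = 0.603).

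Of the 4 genes of metabolism and redox control, 3 were higher and 1 was lower in each construct group. Sesn1 and Sesn2 encode sestrins, which restrain mTORC1 signalling and limit oxidative damage. Sesn1 was at 23.8, 23.2 and 24.3 CPM in the 4OHT libraries, 41.5, 41.7 and 43.8 CPM in the MU libraries and 40.2, 43.9 and 41.6 CPM in the OE libraries, with MU and OE overlapping and both well above 4OHT. It was 1.78-fold higher in MU (log2 fold change 0.83, standard error 0.057, adjusted p = 2.55e-08 from edgeR) and 1.77-fold higher in OE (0.82, standard error 0.058, adjusted p = 2.75e-08). Sesn2 was at 122, 132 and 145 CPM in the 4OHT libraries, 60.2, 60.8 and 59.4 CPM in the MU libraries and 59.6, 54.0 and 58.8 CPM in the OE libraries. The 4OHT libraries here were the highest, so that the 2 sestrins lay in opposite directions. Sesn2 was 2.21-fold lower in MU (log2 fold change -1.15, adjusted p = 2.62e-09 from edgeR) and 2.32-fold lower in OE (-1.21, adjusted p = 1.33e-09). Tigar, a fructose-2,6-bisphosphatase that turns glucose from glycolysis to the pentose phosphate route, was at 34.8, 34.8 and 37.4 CPM in the 4OHT libraries, 59.0, 55.7 and 55.9 CPM in the MU libraries and 62.8, 59.8 and 59.2 CPM in the OE libraries. The groups did not overlap, and OE was highest (log2 fold changes 0.67 and 0.76, adjusted p = 1.24e-07 and 3.16e-08 from edgeR). Fdxr, the mitochondrial ferredoxin reductase, averaged 8.34 ± 0.82 CPM (SD, n = 3) in 4OHT, 11.8 ± 0.357 in MU and 12.2 ± 1.58 in OE (log2 fold changes 0.50 and 0.54, adjusted p = 0.00135 and 6.87e-04 from edgeR).

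Of the 4 other targets, Zmat3 and Rps27l were lower, Gdf15 was higher and Ckap2 was not called. Zmat3, an RNA-binding protein that regulates splicing, was at 184, 175 and 181 CPM in the 4OHT libraries, 55.5, 53.7 and 54.5 CPM in the MU libraries and 48.6, 48.1 and 47.7 CPM in the OE libraries. The libraries of each group lay close together and the groups were separate, with Zmat3 3.30-fold lower in MU (log2 fold change -1.72, standard error 0.045, adjusted p = 2.77e-12 from edgeR) and 3.74-fold lower in OE (-1.90, standard error 0.045, adjusted p = 7.84e-13). Rps27l, a ribosomal protein paralog, was at 141, 127 and 77.7 CPM in the 4OHT libraries, 72.2, 72.4 and 69.4 CPM in the MU libraries and 62.1, 67.6 and 59.8 CPM in the OE libraries. The third 4OHT library was well below the other two and only just above MU, and Rps27l had the largest coefficient of variation of the members in 4OHT (28.7%). Its log2 fold change was -0.69 in MU (standard error 0.15, adjusted p = 0.00135 from edgeR) and -0.86 in OE (standard error 0.15, adjusted p = 2.16e-04), and it could share reads with Rps27 and its pseudogenes. Gdf15, a secreted stress cytokine, was the member with the lowest level, at 1.88, 1.28 and 1.60 CPM in the 4OHT libraries, 3.96, 2.95 and 3.25 CPM in the MU libraries and 2.52, 3.76 and 4.16 CPM in the OE libraries. All libraries of the constructs were above all 4OHT libraries, with log2 fold changes of 1.09 (standard error 0.21, adjusted p = 5.54e-04 from edgeR) and 1.14 (standard error 0.22, adjusted p = 4.10e-04). Ckap2, a spindle protein, averaged 72.7 ± 2.14 CPM (SD, n = 3) in 4OHT, 77.3 ± 1.26 in MU and 79.0 ± 4.50 in OE. Its log2 fold change was 0.088 in MU (adjusted p = 0.172 from edgeR) and 0.12 in OE (adjusted p = 0.0636). Neither group overlapped with 4OHT. Without the first OE library Ckap2 was called higher in OE (0.17, adjusted p = 0.0192), which made 7 members higher and 27 lower. With library totals in edgeR it was called higher in MU (0.20, adjusted p = 0.00368) and in OE (0.21, adjusted p = 0.00277). The same held with upper quartile scaling (0.17, adjusted p = 0.0116, and 0.20, adjusted p = 0.00371).

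Between the constructs the members differed little in size. In MU against OE, 7 members were higher, 1 was lower and 28 were not called, while 3.17% of all genes tested were called, 2.12% higher and 1.06% lower. The median log2 fold change was 0.068 for the members and 0.008 for all genes, and 27 of the 36 values were above 0. The libraries of the groups did not overlap for 20 members, against 25.9% of all genes. Perp had the largest difference, 1.49-fold higher in MU (log2 0.58 ± 0.071, standard error, adjusted p = 3.41e-04 from edgeR). Cdkn1a was 1.24-fold higher in MU (0.31, standard error 0.048, adjusted p = 0.00181) and Eda2r 1.26-fold higher (0.33, standard error 0.06, adjusted p = 0.00663). These are a desmosomal, an arrest and a receptor gene. Fas (0.36, adjusted p = 0.0239), Ccng1 (0.24, adjusted p = 0.0264), Plk2 (0.24, adjusted p = 0.0459) and Zmat3 (0.18, adjusted p = 0.0412) were also called higher in MU. Dram1 was the 1 member called lower in MU (-0.44, standard error 0.06, adjusted p = 7.56e-04). In the same comparison 13 of 15 fibroblast marker genes were called higher, and their part was not tested. By role, 3 of 6 arrest genes, 3 of 14 apoptosis genes and 1 of 4 other targets were higher, and none of the regulators, repair or metabolism genes was called.

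The p53 gene and its regulators did not pass the test between the constructs. The log2 fold change of Trp53 was -0.086 (95% interval -0.20 to 0.024), that of Mdm2 0.072 (-0.02 to 0.17) and that of Mdm4 0.047 (-0.056 to 0.15), with adjusted p of 0.612, 0.611 and 0.801 from edgeR. Over the 28 members not called, the values ranged from -0.093 to 0.21, the lowest adjusted p was 0.169, and 5 had an unadjusted p under 0.05. The number of members higher in MU depended on single libraries and on the scaling. With DESeq2 size factors in edgeR it was 5, as Plk2 (adjusted p = 0.0662) and Zmat3 (adjusted p = 0.0616) were not called. It was 4 without the first OE library and 3 without any 1 of the other MU or OE libraries, since Ccng1, Plk2 and Zmat3 were then not called, nor was Fas except without the first OE library. Perp, Cdkn1a, Eda2r and Dram1 kept their calls in each of these fits. No member was called with a change of at least 2-fold, as 0.45% of all genes were. None passed a test against a 1.5-fold change, which 34 of all 22452 genes passed.

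**Figure D3:**
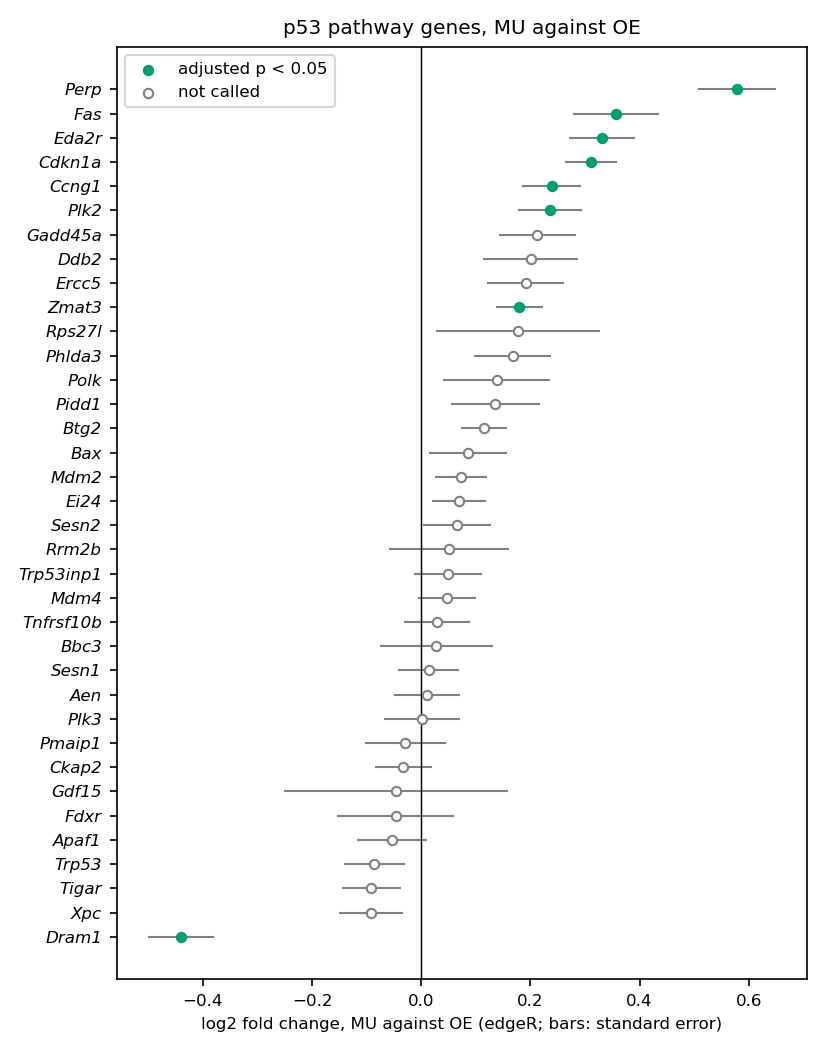
Log2 fold change of the 36 p53 pathway genes in MU against OE, in order of size, with the standard error as a bar. Filled points have an adjusted p under 0.05, 7 to the right of 0 (higher in MU) and Dram1 at -0.44 to the left.

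A further 59 genes of the pathway were described from a separate list, and all were tested. In MU against 4OHT, 22 were higher, 32 lower and 5 not called, and in OE against 4OHT, 21 were higher, 30 lower and 8 not called. Of all genes tested, 29.5% were higher and 26.5% lower in MU, and 29.9% and 27.9% in OE. Without the first OE library, 22 were higher and 30 lower in MU, and 20 higher and 29 lower in OE. Of 26 further p53 targets, 19 were lower and 5 higher in MU, and 20 lower and 4 higher in OE, with medians of -0.97 and -0.95. Of 11 kinases and adaptors that act upstream of p53, 8 were higher in each comparison, with 3 lower in MU and 2 in OE. Prkdc, the catalytic subunit of DNA-dependent protein kinase, was the highest of these at log2 fold changes of 0.81 and 0.87, and Atm, Atr, Chek1 and Chek2, the kinases that signal DNA damage to p53, lay between 0.29 and 0.69 in MU and between 0.27 and 0.71 in OE. Of 20 modifiers and cofactors, 7 were higher in each and 10 were lower in MU and 8 in OE. Prkdc, Atm, Atr, Chek1 and Chek2 were chosen for mention after their values were seen.

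**Figure D4:**
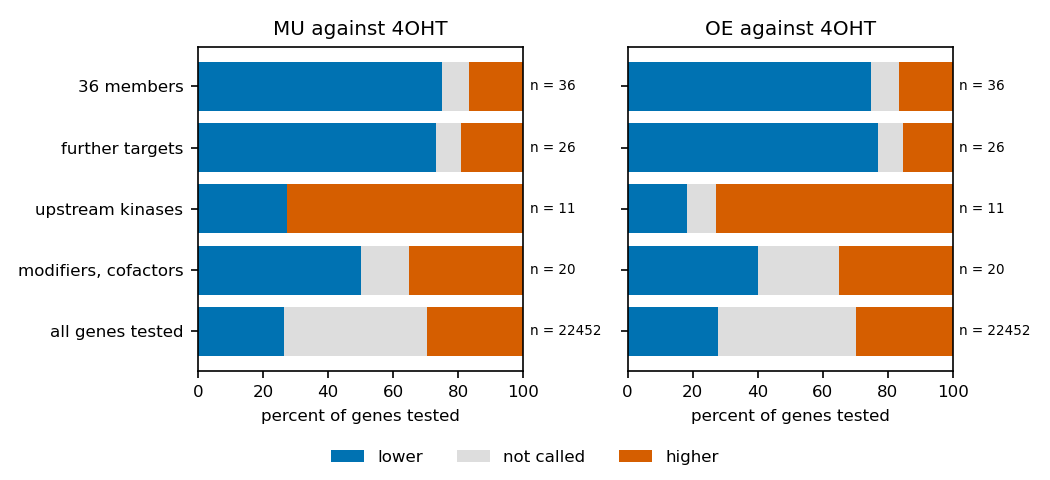
Share of genes called lower (blue), not called (grey) and called higher (orange) at an adjusted p under 0.05 in MU and OE against 4OHT, for the 36 members, 3 lists of other pathway genes and all 22452 genes tested. The members and the further targets are mostly lower, and the upstream kinases are mostly higher.

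Of the 59, 16 were called and at least 2-fold different in both comparisons, with a mean of at least 1 CPM. The share of all genes that met this joint rule was not counted. In the single comparisons, 18 of the 59 in MU and 18 in OE were called and at least 2-fold different. Of all genes, 19.5% and 21.9% were. Cdkn2a, whose locus encodes both p16INK4A and the MDM2 inhibitor ARF, averaged 207 CPM in 4OHT, 78.9 in MU and 72.2 in OE (log2 fold changes -1.39 and -1.52), and gene counts do not separate its products. Trp73, a p53 relative, was low throughout at 0.594 CPM in 4OHT, 1.41 in MU and 1.501 in OE, and higher in the construct groups (1.25 and 1.35). Among arrest and spindle genes, Rprm (Reprimo) was at log2 fold changes of -2.40 and -3.12 and Psrc1 at -1.60 and -1.89, whereas Sfn (14-3-3 sigma) was higher at 1.24 and 1.18. Lif, a cytokine that is also added to SSC medium, had the lowest log2 fold change of the 59 at -3.32 and -3.73, with means of 66.6 CPM in 4OHT, 6.66 in MU and 5.08 in OE. The enzymes Ak1 (-2.05 and -2.43), Dcxr (-2.03 and -2.27), Abhd4 (-1.23 and -1.35), Ptp4a3 (-1.41 and -1.41) and Steap3 (-1.10 and -1.29) were lower, as was Zfp365 (-1.57 and -1.73). The secreted or matrix proteins were split. Thbs1 (-1.79 and -2.26) and Kitl (-1.13 and -1.75), the ligand of the receptor Kit, were lower, and Tgm2 (1.02 and 1.44) and Igfbp3 (1.93 and 1.28) were higher. All of these were called by edgeR. In MU against OE, 4 of the 59 were higher and 2 were lower (5 and 2 without the first OE library), against 2.12% and 1.06% of all genes, the higher ones being Ak1 (0.37), Thbs1 (0.46), Igfbp3 (0.64) and Kitl (0.62) and the lower ones Tgm2 (-0.43) and Hipk2 (-0.84), a kinase of p53 at 36.1 CPM in 4OHT, 18.1 in MU and 32.5 in OE that was chosen for mention after its values were seen.

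Markers of other cell types moved with the groups and are given as measured. The summed level of 15 fibroblast genes, which fibroblast feeder cells would express, was 11154 to 13409 CPM in 4OHT, 6015 to 6111 in MU and 4721 to 4798 in OE. Of these genes, 14 were lower and 1 higher in MU, and all 15 were lower in OE. The log2 change of this sum was -1.002 in MU and -1.35 in OE, and 14 members in MU and 9 in OE had a log2 fold change below it. The sum weighs abundant genes most, above all Fn1 (mean 4957 CPM in 4OHT, log2 fold changes -1.44 and -1.74). The median log2 fold change of the 15 genes was -0.85 in MU and -1.17 in OE. The 15 fibroblast genes ranged from -2.02 to 0.17 in MU and from -2.36 to -0.26 in OE, and 2 members in MU (Perp and Plk2) and 1 in OE (Perp) lay below their lowest.

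Macrophage genes went the other way, with a sum of 173 to 189 CPM in 4OHT, 1138 to 1171 in MU and 2219.9 to 2343 in OE over 10 symbols, of which Itgam has 2 gene identifiers. All 10 symbols had an identifier called higher in each construct group, and 8 were lower in MU than in OE. Their part in the members' differences was not tested. The sum of 15 germ cell genes was 2121 to 2181 CPM in 4OHT, 2699 to 2784 in MU and 2927 to 2957 in OE, with 8 genes higher and 6 lower than in 4OHT in each construct group, and 1 not called. The higher ones were Ddx4, Dazl, Sall4, Lin28a, Mael, Utf1, Kit and Stra8, and the lower ones Zbtb16, Gfra1, Ret, Etv5, Nanos2 and Nanos3, of which Etv5 (log2 fold changes -3.18 and -3.38) and Gfra1 (-2.13 and -2.09) had the lowest values and Kit (2.32 and 2.33) the highest. Markers of Sertoli cells, the somatic support cells of the testis, summed to 25.5 to 29.1 CPM in 4OHT, 21.9 to 22.9 in MU and 19.7 to 22.7 in OE. Of these 8 genes, 4 (Wt1, Gata4, Dhh and Rhox5) were higher and 2 lower than in 4OHT in each construct group. Sox9, which was lower in both, averaged 16.2 CPM in 4OHT, 6.81 in MU and 6.05 in OE. No marker of the 4 lists was at or under 3 counts in every library. Since 1 read pair may give about 4 counts, this does not show that each marker was clearly expressed. Amh averaged 0.138 CPM in 4OHT, 0.0891 in MU and 0.0106 in OE, and Gata1 0.198, 0.154 and 0.0969.

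**Figure D5:**
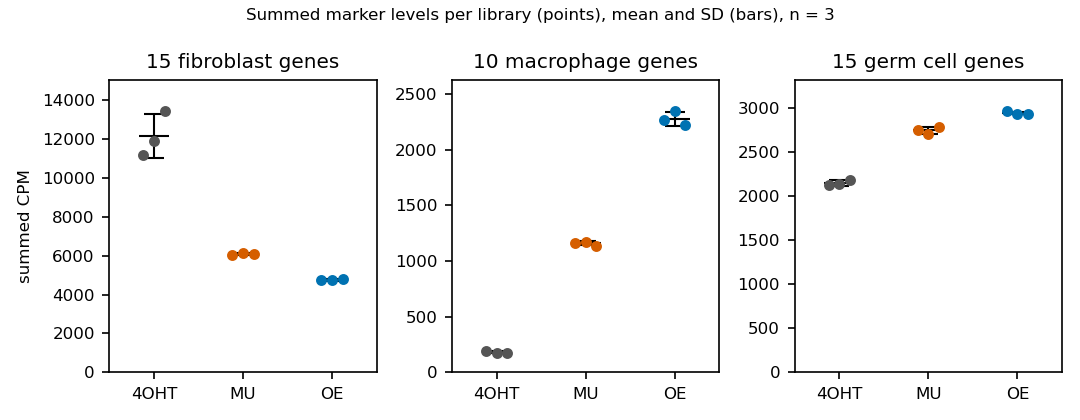
Summed CPM of fibroblast, macrophage and germ cell marker genes per library (points), with mean and SD (bars, n = 3), on axes from 0. The fibroblast sum is highest in 4OHT and lowest in OE, and the macrophage and germ cell sums run in the opposite order.

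Exon bases were shared with another annotated gene for 8 members, namely Rrm2b, Cdkn1a, Ddb2, Plk3, Gadd45a, Tigar, Bax and Ei24. The spread between libraries was small beside most of these differences. The median coefficient of variation of the members was 7.23% in 4OHT, 2.95% in MU and 3.68% in OE. Per kilobase of exon, the members with the highest level in 4OHT after Ccng1 were Rps27l at 141 CPM and Mdm2 at 137 CPM. In OE the order was Ccng1 at 77.5, Rps27l at 77.4 and Btg2 at 70.9 CPM, with Mdm2 at 50.2 CPM. The lowest in 4OHT were Gdf15 at 0.857 and Rrm2b at 1.66 CPM per kilobase.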

How the data were processed

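The deposited table held raw, whole-number counts of 53801 genes in 9 libraries, which the authors had not normalized. By the study's methods and the submitters' notes, paired reads of 150 bases were trimmed with BBmap and Trimmomatic 0.39, aligned to GRCm38 with HISAT2 2.2.1 and quantified with StringTie 2.2.1. How this output became whole counts, and how strand and reads with several alignments were handled, is not given in the sources used here. A value of 4 counts was 1.35 to 1.84 times as frequent as its neighbours, so that 1 read pair may give about 4 counts, and counts overstate the number of reads.

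Groups came from the labels. Counts were filtered by group with filterByExpr (minimum count 10, minimum total 15), scaled by TMM and fitted with the quasi-likelihood F-test of edgeR 4.0.16 in R 4.3.3, with group as the only factor over all 9 libraries. The Benjamini-Hochberg adjustment ran over 22452 genes, with a threshold of 0.05. CPM use the TMM-scaled totals. Coordinates and exon lengths came from the GENCODE annotation of GRCm38, which matched 53706 identifiers, and promoters from RefSeq. A listed symbol, Setd8, was matched as Kmt5a.

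The members, lists and alternatives were chosen with earlier results of these data known. All members are named. Other pathway genes are named where they passed the test in MU and in OE against 4OHT, by at least 2-fold in each, with a mean of at least 1 CPM. Alternatives covered scaling, filter, threshold, libraries fitted, a replicate block, counts divided by 4, DESeq2 1.42.0 and leaving out each library. With 3 libraries against 3, an exact permutation test cannot go below p = 0.10, so none was run.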

Additional observations from a re-analysis of the deposited data

How the results depend on the processing

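In MU and in OE against 4OHT, 27 members were called lower under 3 other scalings, no filter, counts divided by 4, only the groups compared, DESeq2 and without each library, and 5 to 8 were called higher. Tested against a 1.5-fold change in edgeR, 3 members were higher and 16 lower in MU, and 4 higher and 18 lower in OE. In MU against OE 0 were higher and 0 lower. Without that threshold, 13 had an unadjusted p under 0.05 there in edgeR, and DESeq2 called 7 higher and 1 lower. Of the 22452 genes tested, 5059 passed the 1.5-fold threshold in MU against 4OHT, 5645 in OE against 4OHT and 34 in MU against OE. Without single libraries, 3 to 7 members were higher in MU than in OE. With the 6 libraries of MU and OE alone, 10 members were higher and 1 lower, and 1565 of all genes were called, against 712. Of the other pathway genes, the 1.5-fold threshold left 6 higher and 17 lower in MU, 8 higher and 17 lower in OE, and 0 and 0 in MU against OE. In MU against OE, 7 of them were higher with library totals, 8 without the filter, 8 with counts divided by 4, 7 with only the groups compared and 8 with DESeq2, and without single libraries 4 to 9 were higher and 1 to 2 lower. The cause of these shifts was not tested.

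Values near 0 changed sign. Xpc in MU against 4OHT was 0.059 with library totals, 0.025 with upper quartile scaling and 0.0087 without the filter, and -0.11 to 0.0049 without single libraries, and in OE it was -0.024 to 0.094 without single libraries. Mdm4 in OE against 4OHT was -0.010 with DESeq2 size factors, -0.027 with counts divided by 4, -0.0092 with only the groups compared and -0.010 with DESeq2, and -0.030 to 0.052 without single libraries. No call rests on these.

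No pairing of libraries by the replicate numbers of the labels was seen. Correlations of their deviations ran from -0.020 to 0.044 for same-numbered libraries and from -0.039 to 0.039 for different-numbered ones. With 3 libraries in a group, such values cannot show that no culture or batch was shared. With the replicate block, members lower and higher against 4OHT stayed at 27 and 6, and 6 were higher and 1 lower in MU against OE, where Zmat3 lost its call (adjusted p = 0.0606 from edgeR). Of all genes, 12443, 12807 and 674 were called with the block in MU against 4OHT, OE against 4OHT and MU against OE, compared with 12571, 12967 and 712. Depth did not keep any member from the test, but Gdf15, at 1.59 CPM in 4OHT, had the largest standard errors.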
